A study of Mus musculus with 13 samples.

Results

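The genes described here are 46 components and regulators of the DNA replication machinery, taken from the 47937 genes of the count table. They were chosen by their names and functions in S phase and origin licensing, with earlier results of these data known. All 46 were found, and all 46 passed the filter on low counts in every comparison, with 96 to 10876 counts per gene and library. RNA was sequenced from DN3 and DN4 thymocytes freshly sorted from C57BL/6 mice aged 6 weeks. Double negative (DN) thymocytes are T cell precursors without CD4 and CD8. DN3 is the stage at which the Tcrb locus is rearranged and β-selection takes place, and DN4 follows it. The Wt group was WT;Lck-Cre+ and the KO-labelled group was Opa1fl/fl;Lck-Cre+, so both carried the Cre recombinase, driven by a promoter of Lck, a kinase gene of the T cell lineage, that becomes active during the DN stages. Opa1 encodes a GTPase of the inner mitochondrial membrane. There were 3 Wt DN3, 4 Wt DN4, 3 KO-labelled DN3 and 3 KO-labelled DN4 libraries. A number shared by the titles of both stages is read here as the mouse, which gives 7 mice, of which 6 gave both stages and WT40 gave DN4 only.

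DNA is copied once per cell cycle because loading and firing of replication origins are separated in time. In G1 the origin recognition complex, Cdc6 and Cdt1 load the Mcm2 to Mcm7 helicase, and in S phase Cdc45 and the GINS complex activate it, after which polymerases, the sliding clamp Pcna and its loader copy both strands. Many of these genes are transcribed under E2F factors as cells enter S phase, and DN thymocytes that pass β-selection are known for rapid division as they move from DN3 to DN4.

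Libraries held 5926848 to 14148661 counts. The DN3 library of mouse WT05 stood apart, with 41.5% of its counts on 11 ribosomal RNA-like genes against 0.442% to 1.75% in the other libraries. Opa1 was counted 1074, 705 and 913 times in KO-labelled DN3 (mice KO45, KO49, KO51), 382, 1039 and 827 times in Wt DN3 (WT05, WT46, WT48), 1075, 1178 and 883 times in KO-labelled DN4 and 1088, 961, 1098 and 839 times in Wt DN4 (WT05, WT40, WT46, WT48). Counts over the whole gene also take reads from exons that were not deleted, and the groups overlapped, with log2 differences of -0.12 in DN3 (SE 0.133, edgeR adjusted p = 1.0) and -0.08 in DN4 (SE 0.0881, adjusted p = 0.945). The genotype therefore rests on the labels. Of the mice, WT40 and WT46 alone had high counts of Y-linked genes and almost none of Xist, so that sex and genotype were not balanced. Il2ra, which encodes CD25 and defines DN3 among these stages, ranged from 727 to 1337 CPM (counts scaled to a common library size) in DN3 and from 9.78 to 24.1 CPM in DN4, so the stages matched their labels. Bulk RNA cannot tell fewer cells of a type from less RNA per cell.

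All 4 groups expressed the replication genes, and in 3 of them the levels differed more between mice than the group means did. Summed over the 46 genes, the level was 10513, 9619 and 10204 CPM in Wt DN3, in the order WT05, WT46 and WT48, and 8104, 10008, 10902 and 7112 CPM in Wt DN4, in the order WT05, WT40, WT46 and WT48. KO-labelled mice KO45, KO49 and KO51 had 7793, 10527 and 11185 CPM in DN3 and 7114, 9728 and 11646 CPM in DN4; these orders are kept below. The 3 Wt DN3 libraries lay within 1.09-fold of each other, whereas the highest was 1.44-fold above the lowest in KO-labelled DN3, 1.53-fold in Wt DN4 and 1.64-fold in KO-labelled DN4. Group means differed less than this, with a DN4 to DN3 ratio of 0.893 for Wt and 0.966 for KO-labelled mice, and a KO-labelled to Wt ratio of 0.973 in DN3 and 1.05 in DN4.

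The spread between mice ran through nearly every gene. Mouse KO45 had the lowest level of its group for 46 of 46 genes in DN3 and 45 of 46 in DN4, where 40.5% and 37.8% of all 13361 genes measured were lowest in it. Mouse KO51 was highest for 37 genes in DN3 and for 46 in DN4, against 29.2% and 33.7% of all genes. In Wt DN4, WT46 was highest for 44 genes (21.7% of all genes) and WT48 was lowest for 37 (31.7%). In Wt DN3, WT46 was lowest for 30 genes (25.8%) and highest for 3, while WT05 was highest for 23 (41.3%) and lowest for 13 (47.7%). With WT05 set against the mean of the other 2 Wt DN3 libraries, the ratio ran from 0.69 to 2.10, and Pola1, the catalytic subunit of DNA polymerase alpha, had 245 CPM there against 114 and 120 CPM. Its 23 highest genes had a median gene span of 23.1 kb and its 13 lowest a median of 10.9 kb; the part of its ribosomal RNA-like share in this was not tested.

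**Figure D1:**
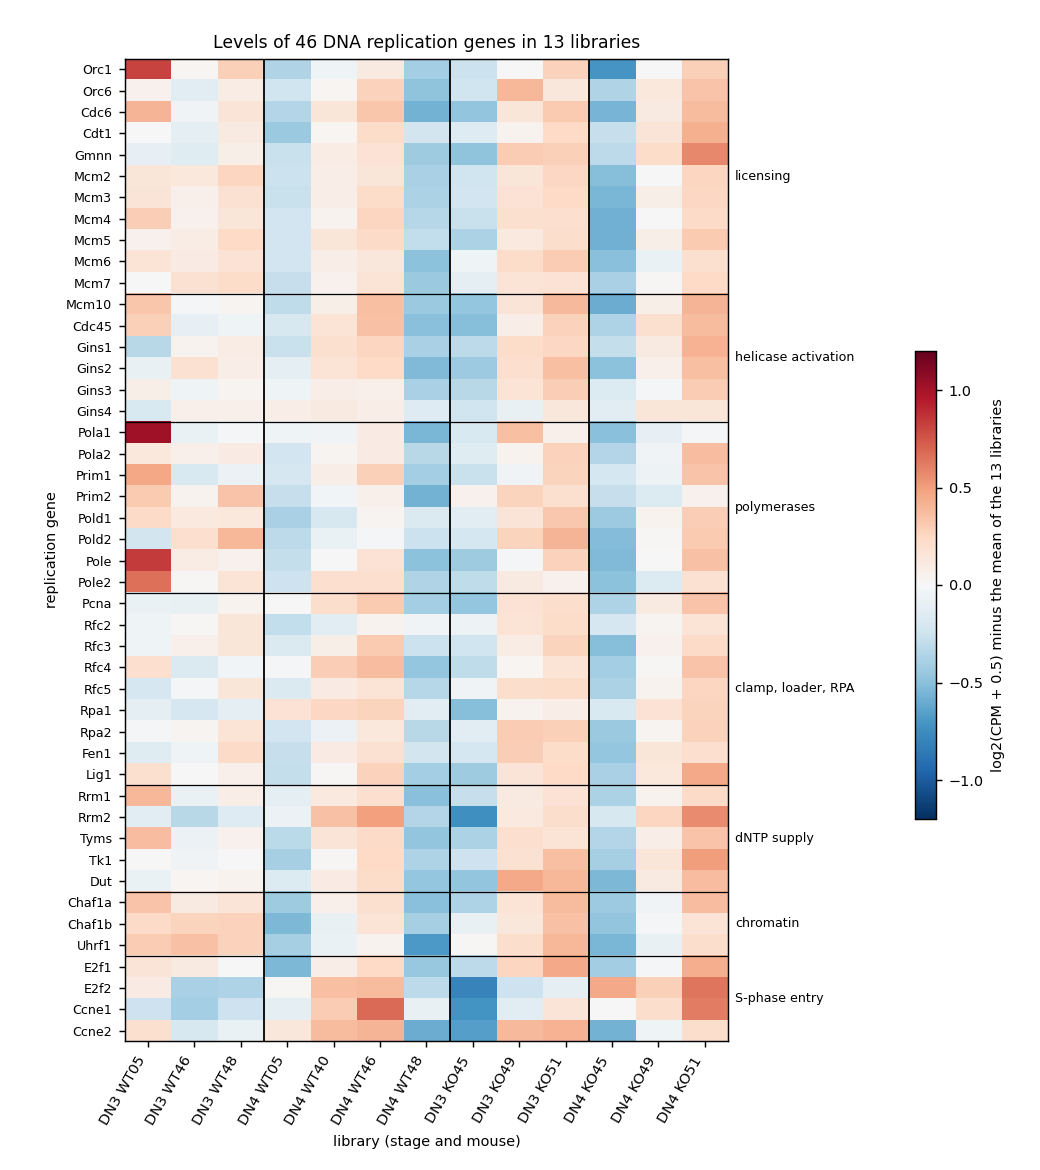
Heat map of the 46 replication genes (rows, by role) in the 13 libraries (columns, by genotype and stage), coloured by log2(CPM + 0.5) minus the mean of the gene over the 13 libraries; lines separate groups and roles. Columns differ within groups as whole blocks, with KO45 low and KO51 high in both stages, and the single dark cells of DN3 WT05 are Pola1, Pole, Orc1 and Pole2.

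Levels between genes were compared as CPM per kilobase of the principal transcript, averaged as the mean of the 4 group means. Pcna, the sliding clamp that tethers polymerases to DNA, was highest at 390, followed by the helicase subunit Mcm6 at 254 and Uhrf1, which guides maintenance methylation to newly copied DNA, at 219. The other helicase subunits were at 188 (Mcm7), 153 (Mcm3), 149 (Mcm5), 136 (Mcm2) and 107 (Mcm4). At the low end were the GINS subunits Gins2 at 12.6 and Gins3 at 10.8, with Orc1, the largest subunit of the origin recognition complex, at 11.9.

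From DN3 to DN4, few replication genes passed the test, at stages between which much of the transcriptome changed. In Wt, 1 of 46 genes passed an adjusted p of 0.05 in edgeR, where 22.9% of the 12691 genes tested did (13.4% higher and 9.43% lower). It was Uhrf1, which fell. In KO-labelled mice it was also 1 of 46, against 18.6% of 12580 genes (11.2% higher and 7.34% lower). That gene was E2f2, a transcription factor of S-phase entry, which rose. Since 6 mice gave both stages, the stages were also compared with the mouse as a block in edgeR, and the counts were then 0 of 46 in Wt (18.9% of all genes) and 7 of 46 in KO-labelled mice (35.8%). An unadjusted p under 0.05 was reached by 7 of 46 genes in Wt, where 35.5% of all genes reached it, and by 2 of 46 in KO-labelled mice, against 33%. DESeq2 and limma-voom each called the same 1 gene in either genotype, where they called 16% and 21.3% of all genes in Wt and 14% and 17.1% in KO-labelled mice.

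In Wt the median of the 46 changes lay below that over all genes under both scalings, although its sign differed. With TMM, 38 of the 46 fitted changes lay below 0 and their median was -0.18 on the log2 scale, beside -0.03 over all genes tested; scaled by library totals, which in DN3 WT05 include the ribosomal RNA-like counts, the median was 0.02, with 26 above 0, beside 0.16 over all genes. In KO-labelled mice 32 lay below 0, with a median of -0.08 beside -0.02 over all genes, and by library totals the median was -0.09. Leaving out 1 library gave medians of -0.29 to -0.09 in Wt and of -0.29 to 0.06 in KO-labelled mice. The fitted changes ran from -0.59 to 0.52 in Wt and from -0.35 to 0.81 in KO-labelled mice. The ranges of DN3 and DN4 libraries did not overlap for 4 genes in Wt (34.8% of all genes), of which 1 was higher in DN4 (19.9%) and 3 were lower (14.9%), and for 1 gene in KO-labelled mice (39.1%), which was higher (23%), with 0 lower (16.2%).

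**Figure D2:**
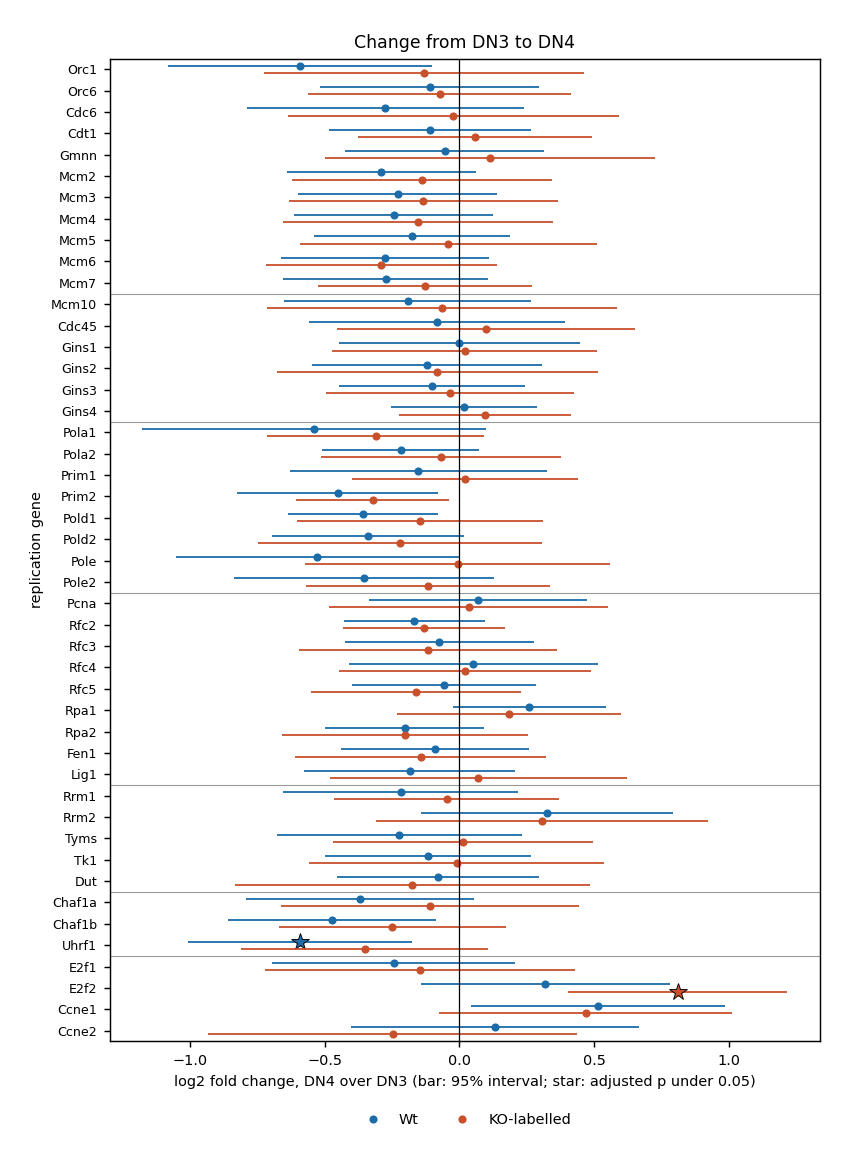
Fitted log2 fold change from DN3 to DN4 (x axis, edgeR) for each of the 46 replication genes (y axis, by role) in Wt and KO-labelled mice, with 95% intervals; a star marks an adjusted p under 0.05. Stars stand at Uhrf1 in Wt (-0.59) and E2f2 in KO-labelled mice (0.81), and most other intervals cross 0.

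Among the licensing genes, 11 of 11 fitted changes lay below 0 in Wt (median -0.24) and 9 of 11 in KO-labelled mice (median -0.13), and 0 passed the test in edgeR in either, with 1 (Orc1) at an unadjusted p under 0.05 in Wt. Mcm2 to Mcm7 form the ring-shaped helicase, and their fitted changes lay close together, between -0.29 and -0.18 in Wt and between -0.29 and -0.04 in KO-labelled mice. Scaled by library totals, all 6 were also below 0 in both genotypes, although the median in Wt was then -0.06. Leaving out 1 Wt library gave -0.37 to -0.17 for Mcm6 and -0.27 to -0.10 for Mcm5 in Wt. Over the other alternatives Mcm6 ran from -0.56 to -0.08 in Wt. Mcm6, the most abundant of them, had 813, 773 and 819 CPM in Wt DN3 and 617, 765, 795 and 515 CPM in Wt DN4. In KO-labelled mice it had 698, 844 and 893 CPM in DN3 and 511, 684 and 826 CPM in DN4. WT46 was the only mouse of the 6 in which it was not lower in DN4, and the groups overlapped in both genotypes (Wt -0.28, SE 0.169, adjusted p = 0.281; KO-labelled -0.29, SE 0.186, adjusted p = 0.321). With the mouse as a block, Mcm6 fell in KO-labelled mice (edgeR adjusted p = 0.0355). Mcm2 had 494, 490.5 and 535 CPM in Wt DN3 and 375, 475, 495 and 342 CPM in Wt DN4. Mcm5 had 513, 527 and 585 CPM against 421, 546, 580 and 403 CPM. For both, WT05 and WT48 were low in DN4 and WT46 was not. Mcm3, Mcm4 and Mcm7 showed the same order, with WT48 lowest and WT46 highest in Wt DN4. Mcm7 (chromosome 5, 138164583 to 138172422 on GRCm38) overlaps Cops6 and Ap4m1 on the opposite strand and holds 3 microRNA genes, so its counts are less certain, as the strand setting of the counting is not given in the sources used here. The same holds for other members that overlap genes on the opposite strand, among them Orc1, Cdc45, Gins2 and Pole. Cdt1 overlaps a gene on its own strand.

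Cdc6, the loading ATPase, had 163, 118 and 137 CPM in Wt DN3 and 95.6, 135, 155 and 82.7 CPM in Wt DN4 (-0.27, SE 0.225, adjusted p = 0.428), and 87.99, 135 and 152 CPM against 82.7, 132 and 159 CPM in KO-labelled mice. Cdt1, its partner in loading, had 176, 163 and 190 CPM in Wt DN3 and 129, 179, 205 and 151 CPM in Wt DN4. Gmnn encodes geminin, which inhibits Cdt1, and had 65.8, 64.0 and 74.2 CPM against 58.8, 75.5, 79.7 and 52.6 CPM. The stages overlapped for all 3 genes, and the fitted changes of Cdt1 and Gmnn in Wt were -0.11 (SE 0.164) and -0.05 (SE 0.162).

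The start regions of Mcm6, Mcm5, Mcm3 and Mcm7, which hold E2F words, are shown, with Uhrf1 and E2f2 for the genes that passed the test. The relation of these words to the levels was not tested. The words searched on both strands were TTTCCCGC, TTTCGCGC, TTTGCCGC and TTTGGCGC, which can overlap one another. RefSeq promoters of 300 bases (250 before and 50 from the start, GRCm38.p6) were at hand for 37 of the 46 genes, and 15 of their 44 promoters held a word (34.1%), against 744 of 32851 promoters in all (2.26%). CCAAT was in 25 of the 44 (56.8%, against 37.4% of all) and TTTGAA in 6 (13.6%, against 17.9%). Of the other helicase genes, Mcm2 held 0 E2F words, and Mcm4 had no entry. A match describes letters and is not a measured binding site. Capitals mark the words; each sequence runs 5′ to 3′ along the strand of its gene.
Mcm6: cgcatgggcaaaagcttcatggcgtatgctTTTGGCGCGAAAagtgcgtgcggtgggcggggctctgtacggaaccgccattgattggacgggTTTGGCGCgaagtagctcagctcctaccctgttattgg
Mcm5: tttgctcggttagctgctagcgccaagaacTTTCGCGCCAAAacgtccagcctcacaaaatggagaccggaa
Mcm3: gGCGGGAAAacttgggaagtTTTGGCGCc
Mcm7: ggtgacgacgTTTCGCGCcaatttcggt
Uhrf1: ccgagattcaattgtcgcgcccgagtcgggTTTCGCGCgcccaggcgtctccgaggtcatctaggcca
E2f2: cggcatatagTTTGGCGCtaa
The Mcm6 stretch (chr1:128359715-128359845, minus strand) lies upstream of the start and holds 3 words, of which the first and second overlap on opposite strands. The Mcm5 stretch (chr8:75109326-75109397, plus strand) is also upstream, with 2 words that overlap on opposite strands. Those of Mcm3 (chr1:20820266-20820294, minus strand, 2 words) and Mcm7 (chr5:138171850-138171877, minus strand, 1 of 2 words) lie downstream of the start, in annotated 5′ untranslated exon. The Uhrf1 stretch (chr17:56304098-56304165, plus strand) is upstream of the second of its starts and inside the span of transcripts from the first. The E2f2 stretch (chr4:136172303-136172323, plus strand) follows the RefSeq start and lies before the first annotated GENCODE exon.

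Genes of helicase activation were near 0 in both genotypes. The fitted changes ran from -0.19 to 0.02 over Mcm10, Cdc45 and the 4 GINS subunits in Wt, with 5 of 6 below 0, and 3 of 6 were below 0 in KO-labelled mice (median -0.01). Cdc45, which joins Mcm2 to Mcm7 and GINS in the active helicase, had 99.5, 76.2 and 78.7 CPM in Wt DN3 and 71.2, 91.7, 105 and 57.5 CPM in Wt DN4. The DN4 libraries thus lay on both sides of the DN3 libraries.

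Polymerase and primase genes had a median of -0.36 in Wt (8 of 8 below 0) and -0.13 in KO-labelled mice (7 of 8), and 0 of 8 passed the test in edgeR in either. In Wt, 3 had an unadjusted p under 0.05, a share near the 35.5% of all genes. The genotypes were not shown to differ in these changes, as 0 replication genes passed the interaction test in edgeR. The summed level in DN3 WT05 was 1363 CPM, against 1022 and 1074 CPM in the other Wt DN3 libraries. With the mouse as a block, 2 of 8 (Prim2 and Pola1) were called in KO-labelled mice, both lower, where 35.8% of all genes were called and 16.9% were lower. Of the 3 in Wt, Pold1, the catalytic subunit of polymerase delta, separated the stages in Wt with 291, 270 and 272 CPM in DN3 and 190, 217, 255 and 221 CPM in DN4 (-0.36, SE 0.122, adjusted p = 0.0685). Prim2, the large primase subunit, had 83.4, 69.0 and 84.8 CPM against 55.0, 65.2, 69.7 and 45.1 CPM (-0.45, SE 0.163, adjusted p = 0.0819), where WT46 had 69.0 and 69.7 CPM and the ranges overlapped. For Pola1 and Pole, the values of DN3 WT05 (245 and 279 CPM) were the highest: without that library the change in Wt was -0.10 for Pola1, where it had been -0.54, and -0.23 for Pole, where it had been -0.53. Pold1, Prim2, Pola1 and Pole were singled out after their values were seen.

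The clamp, its loader, single-strand binding and Okazaki fragment genes had a median change of -0.07 in Wt, where KO-labelled mice had -0.12, and 0 of 9 passed the test in edgeR. Pcna had 554, 548 and 603 CPM in Wt DN3 and 584, 677, 727 and 441 CPM in Wt DN4, and 425, 660 and 675 CPM against 453, 630 and 740 CPM in KO-labelled mice. Its fitted changes were 0.07 (SE 0.177) and 0.03 (SE 0.225), less than the spread between mice. Rpa1, the large subunit of the single-strand binding protein RPA, had 261, 244 and 260 CPM in Wt DN3 and 316, 334, 337 and 255 CPM in Wt DN4 (0.26, SE 0.124, adjusted p = 0.176), where WT48 alone lay among the DN3 values.

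Of the 5 genes of deoxynucleotide supply, 4 lay below 0 for Wt and 3 for KO-labelled mice, and 0 passed the test in edgeR. Rrm2, the small subunit of ribonucleotide reductase, lay above 0 in both genotypes, with 373, 324 and 369 CPM in Wt DN3 and 390, 523, 577 and 321 CPM in Wt DN4. In KO-labelled mice it had 245, 443 and 473 CPM in DN3 and 358, 489 and 606 CPM in DN4, higher in DN4 in each of the 3 mice. The fitted changes were 0.33 (SE 0.204, adjusted p = 0.297) in Wt and 0.31 (SE 0.267, adjusted p = 0.464) in KO-labelled mice, where Rrm2 rose with the mouse as a block (edgeR adjusted p = 0.0205). Without the block, its change in KO-labelled mice was 0.07 without DN3 KO45 and 0.09 without DN4 KO51.

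Chromatin genes had the lowest median of the roles in Wt (-0.47, 3 of 3 below 0) and in KO-labelled mice (-0.25, 3 of 3). Uhrf1 had 930, 962 and 910 CPM in Wt DN3 (934 ± 26.5, SD, n = 3) and 573, 711, 774 and 467 CPM in Wt DN4 (631 ± 138, n = 4). All 4 DN4 libraries lay below all 3 DN3 libraries, and the change was -0.59 (SE 0.182, edgeR adjusted p = 0.048). In KO-labelled mice Uhrf1 had 761, 871 and 995 CPM in DN3 and 513, 706 and 869 CPM in DN4, where the ranges overlapped (-0.35, SE 0.199, adjusted p = 0.263), and it fell with the mouse as a block (edgeR adjusted p = 0.0198). The changes in the 2 genotypes did not differ by the interaction test (0.23, 95% interval -0.38 to 0.85, adjusted p = 1.0). The call in Wt was lost with the mouse as a block (adjusted p = 0.061), by library totals and when any Wt library other than DN4 WT46 was left out. Chaf1b, a subunit of the chromatin assembly factor CAF-1, also separated the stages in Wt, at 116, 119.9 and 120.2 CPM in DN3 and 68.1, 93.7, 112 and 75.2 CPM in DN4 (-0.47, SE 0.169, adjusted p = 0.0797).

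Of the 4 S-phase entry regulators, 3 lay above 0 in Wt (median 0.22) and 2 in KO-labelled mice (median 0.16), and 0 passed the test in Wt in edgeR. Their summed level was lower in DN4 in WT05 and WT48 (DN4 to DN3 ratios of 0.889 and 0.914) and higher in the other 4 mice with both stages. E2f2 had 129, 189 and 207 CPM in KO-labelled DN3 (175 ± 40.8, SD, n = 3) and 309, 275 and 350.5 CPM in KO-labelled DN4 (311 ± 37.8, n = 3). All 3 DN4 libraries lay above all 3 DN3 libraries, and the change was 0.81 (SE 0.177, edgeR adjusted p = 0.0164); without the DN3 library of KO49 it was 0.85, with an adjusted p of 0.0619. In Wt, E2f2 had 241, 172 and 174 CPM in DN3 and 228, 289, 293 and 180.3 CPM in DN4, where WT05 and WT48 had similar levels at both stages (0.32, SE 0.203, adjusted p = 0.302); without mice WT40 and WT46 the change was -0.05. The difference between the genotypes was 0.49 (95% interval -0.16 to 1.13, unadjusted p = 0.126, adjusted p = 1.0), so E2f2 was not shown to change differently in KO-labelled mice.

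Ccne1 encodes cyclin E1, which drives Cdk2 at the G1 to S transition. It had 40.1, 35.9 and 40.2 CPM in Wt DN3 and 44.1, 59.3, 76.7 and 44.8 CPM in Wt DN4, with all DN4 above all DN3 libraries (0.52, SE 0.207, adjusted p = 0.111). Leaving out 1 Wt library gave changes of 0.33 to 0.62, and the lowest of the other alternatives was 0.12. KO-labelled mice had 28.9, 43.5 and 53.4 CPM in DN3 and 47.6, 55.3 and 73.2 CPM in DN4 (0.47, SE 0.236, adjusted p = 0.211), where the ranges overlapped and Ccne1 rose with the mouse as a block (edgeR adjusted p = 0.0057). Ccne2, its paralog, had 72.6, 55.6 and 60.01 CPM in Wt DN3 and 69.6, 82.4, 84.5 and 41.9 CPM in Wt DN4. E2f1 lay below 0 in both genotypes, with 102, 98.8 and 91.3 CPM in Wt DN3 and 62.8, 96.7, 108 and 66.7 CPM in Wt DN4 (-0.24, SE 0.197, adjusted p = 0.423). Neither gene separated the stages.

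Within mice, the direction of the whole set differed from mouse to mouse. Between the DN3 and DN4 libraries of the same mouse, 44 of 46 genes were lower in DN4 in WT48 and 39 in WT05, but 41 of 46 were higher in WT46; between 47.1% and 49% of all genes were lower in DN4 in each mouse. KO45 and KO49 had 32 and 37 genes lower in DN4, and KO51 had 30 higher. Uhrf1, Chaf1b, Pold1 and Pold2 were lower in DN4 in all 6 mice, as were 17.6% of all genes, and Ccne1 was higher in all 6, as were 21.9%. These are raw directions with no test.

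Of the 7 genes called in KO-labelled mice with the mouse as a block, 3 were higher and 4 lower, where 18.9% of all genes were higher and 16.9% lower. E2f2 (0.83, edgeR adjusted p = 0.000619), Ccne1 (0.48) and Rrm2 (0.32) rose, and Uhrf1 (-0.38), Prim2 (-0.33, adjusted p = 0.0269), Pola1 (-0.31, adjusted p = 0.0296) and Mcm6 (-0.31) fell. Each of the 7 moved one way in all 3 KO-labelled mice, but these same changes gave the calls, so this adds no support. Genes not called with the block, such as Chaf1b and Pold1, also fell in all 3. Without the block, leaving out 1 KO-labelled library gave changes of -0.56 to -0.20 for Uhrf1, -0.48 to -0.16 for Mcm6, -0.43 to -0.18 for Pola1 and 0.26 to 0.65 for Ccne1. In Wt the blocked count was 0 of 46 in edgeR, against 18.9% of all genes, with 6 of 46 genes at an unadjusted p under 0.05, against 31.1% of all genes.

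**Figure D3:**
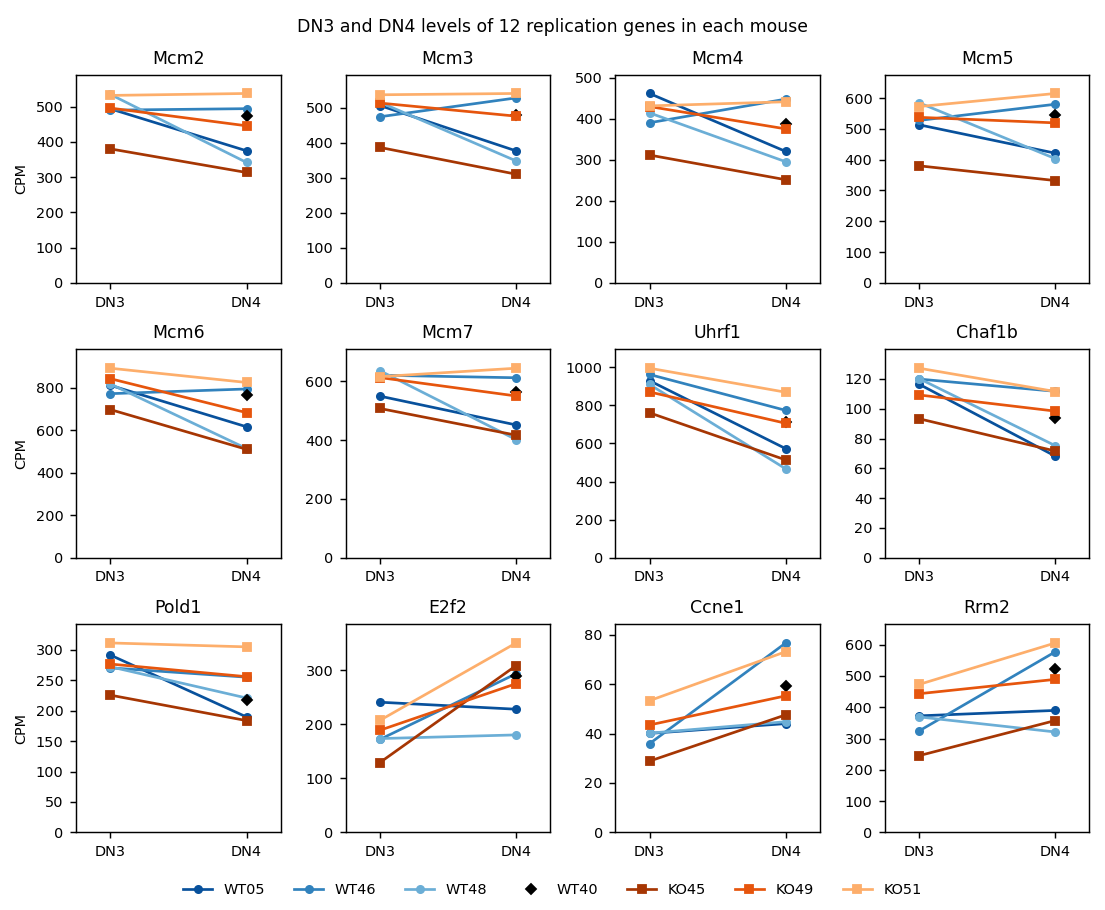
Level in CPM (y axis, from 0) of 12 replication genes in DN3 and DN4 (x axis); lines join the libraries of 1 mouse (blue: Wt; orange: KO-labelled), and the black diamond is mouse WT40, which has DN4 only. Uhrf1, Chaf1b and Pold1 go down and Ccne1 goes up in all 6 mice, while Mcm6 goes down in 5 of the 6, the exception being WT46.

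Between the genotypes, replication genes stayed within the spread of the mice at both stages. In DN3, 0 of 46 were called by edgeR, DESeq2 or limma-voom, which called 0%, 0.00478% and 0% of all genes. In edgeR 0 had an unadjusted p under 0.05, a share near the 1.39% of all genes. The median difference of KO-labelled against Wt was -0.04 by TMM (20 of 46 above 0), beside -0.01 over all genes, and 0.21 by library totals (43 of 46 above 0), beside 0.23 over all genes. The differences ran from -0.41 (Pole) to 0.18 (Dut, which removes dUTP). In DN4, 0 of 46 were called by edgeR, where 0.0535% of 13084 genes were, and 0 by DESeq2 (0.241%) and limma-voom (0.0611%). In edgeR 0 had an unadjusted p under 0.05, against 5.46% of all genes. Here 40 of 46 lay above 0 with a median of 0.11, beside 0.00 over all genes, and the range was -0.21 (Ccne2) to 0.36 (E2f2, SE 0.19, 95% interval -0.07 to 0.80).

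The DN4 median followed single libraries. It was -0.06 without KO51, -0.01 without WT48 and 0.28 without KO45, and without WT40 and WT46, the mice with Y-linked counts, it was 0.34, with 46 of 46 above 0 and still 0 called in edgeR. The Mcm2 to Mcm7 differences lay between 0.00 and 0.11 in DN4 and between -0.13 and 0.01 in DN3. For Mcm6 the 95% interval was -0.44 to 0.50 in DN4 and -0.35 to 0.37 in DN3, which is the precision these libraries gave. The libraries of the genotypes overlapped for all 46 genes at both stages, while 6.52% of all genes were apart in DN3 (3.17% higher and 3.35% lower) and 7.11% in DN4 (2.79% and 4.32%).

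For the interaction of stage and genotype, 0 of 46 genes were called by edgeR, DESeq2 or limma-voom (0% of all genes by each). In edgeR 0 had an unadjusted p under 0.05, a share near the 3.59% of all genes. The median was 0.12 by TMM, with 34 above 0, and -0.10 by library totals, with 8 above 0, beside -0.02 and -0.20 over all genes. With the mouse as a block the count called was again 0 in edgeR. E2f2 alone had an unadjusted p under 0.05 there (change of 0.60, edgeR adjusted p = 0.90), against 5.12% of all genes.

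**Figure D4:**
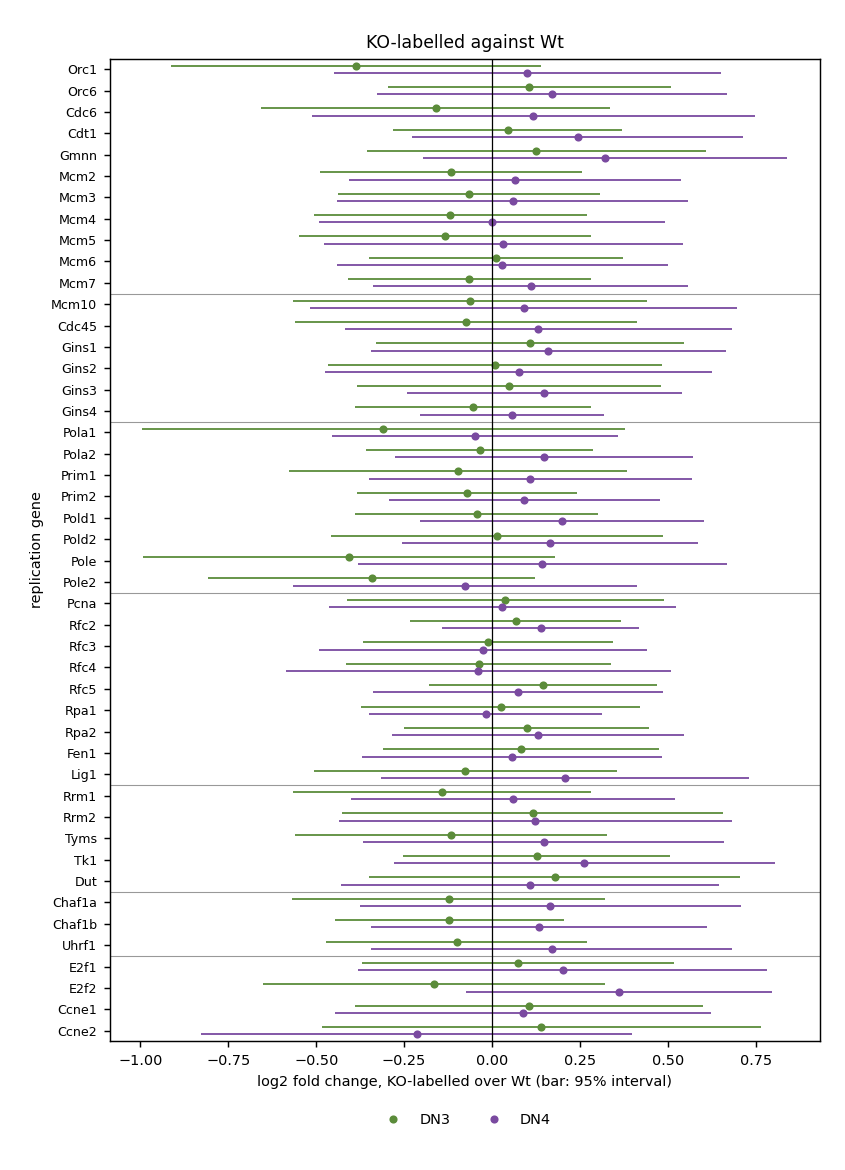
Fitted log2 difference of KO-labelled against Wt (x axis, edgeR) for each of the 46 replication genes (y axis, by role) in DN3 and DN4, with 95% intervals. Every interval crosses 0, and the fitted differences run from -0.41 (Pole, DN3) to 0.36 (E2f2, DN4).

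Other genes of replication and of the cycle were read from lists set beside the 46. Of 40 further replication genes, 2 rose and 2 fell in Wt, and 3 rose and 2 fell in KO-labelled mice, where 13.4% and 11.2% of all genes rose and 9.43% and 7.34% fell. With the mouse as a block the counts in KO-labelled mice were 5 and 11 (18.9% and 16.9% of all genes). Samhd1, which degrades deoxynucleotides, rose by 5.90 on the log2 scale in Wt (SE 0.57, edgeR adjusted p = 0.000319) and by 5.45 in KO-labelled mice (SE 0.673, adjusted p = 0.00168). It had 1.37 to 7.50 CPM in DN3, and 267, 138, 152 and 430 CPM in Wt DN4 and 205, 303 and 77.8 CPM in KO-labelled DN4. Within each genotype these levels had the order of the B-cell marker sums of the same DN4 libraries (1553, 323, 432 and 2950 CPM in Wt DN4 and 1014, 1756 and 231 CPM in KO-labelled DN4), and the part of B cells in them was not tested. Donson, a factor of helicase assembly, rose by 0.66 in Wt (SE 0.124, adjusted p = 0.00661), and Umps and Rnaseh2a fell (-0.49 and -0.52), Umps being an enzyme of pyrimidine synthesis and Rnaseh2a the catalytic subunit of RNase H2. Of 17 E2F and RB family genes and cell cycle inhibitors, 2 rose and 2 fell in Wt, shares near those of all genes, and 4 rose and 2 fell in KO-labelled mice, or 6 and 5 with the mouse as a block. Cdkn1b, which encodes the inhibitor p27, rose by 1.02 (SE 0.149, adjusted p = 0.00212), and Rbl2, which encodes the pocket protein p130, by 0.93 (SE 0.141, adjusted p = 0.00262), whereas Cdkn1a, which encodes p21, fell by 2.12 (SE 0.269, adjusted p = 0.00114) in Wt.

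Of 26 mitosis genes, 1 rose in Wt (median 0.03 over the 26), against 13.4% of all genes, and 2 in KO-labelled mice (median 0.33), against 11.2%, or 17 in KO-labelled mice with the mouse as a block, against 18.9%. In Wt DN3, WT05 was highest for 25 of the 26, with a sum of 6363 CPM against 2716 and 3161 CPM, and without that library the Wt median was 0.21, with 26 above 0 and 1 called in edgeR. Cenpa, the centromeric histone, rose in both (0.49 and 0.63). Between the genotypes in DN4, 26 of 26 lay above 0 with a median of 0.33, 0 passed the test in edgeR and 6 had an unadjusted p under 0.05, against 5.46% of all genes.

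Markers of several other cell types moved with stage and with mouse. All 6 B-cell markers were called higher in DN4 in both genotypes; their sum was 20.9 to 54.7 CPM in DN3, 1553, 323, 432 and 2950 CPM in Wt DN4 and 1014, 1756 and 231 CPM in KO-labelled DN4. In Wt DN4, the libraries with the most B-cell RNA (WT48, then WT05) were those with the lowest replication sums, and in KO-labelled DN4 the library with the least (KO51) had the highest replication sum, but the lowest was in KO45 and not in KO49, which had the most. Of the 4 gamma delta T markers tested (Trdc, Sox13, Blk and Maf), 4 were called higher in Wt and 2 in KO-labelled mice. Their sum was 373 to 532 CPM in DN3, 1103, 669, 722 and 1609 CPM in Wt DN4 and 522, 774 and 722 CPM in KO-labelled DN4. Here too WT48 and then WT05 were highest in Wt DN4, and KO45, the lowest in replication genes, was lowest in KO-labelled DN4. All 6 markers of later CD8+ and CD4+CD8+ thymocytes were also called higher; their sum was 141 to 254 CPM in DN3, 962, 2148, 1484 and 571 CPM in Wt DN4 and 3362, 1105 and 1384 CPM in KO-labelled DN4. Of 8 DN3 markers, 5 were called lower in DN4 in Wt and 6 in KO-labelled mice. Of the 6 NK and innate lymphoid markers, 4 were called higher in Wt and 3 in KO-labelled mice; Ncr1 and Klrb1c were at 0 in every DN3 library, whereas Gzma was at 226 to 297 CPM, and the sum of the 6 was 239 to 326 CPM in DN3 and 229 to 447 CPM in DN4. The part of these cells in the replication values was not tested.

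**Figure D5:**
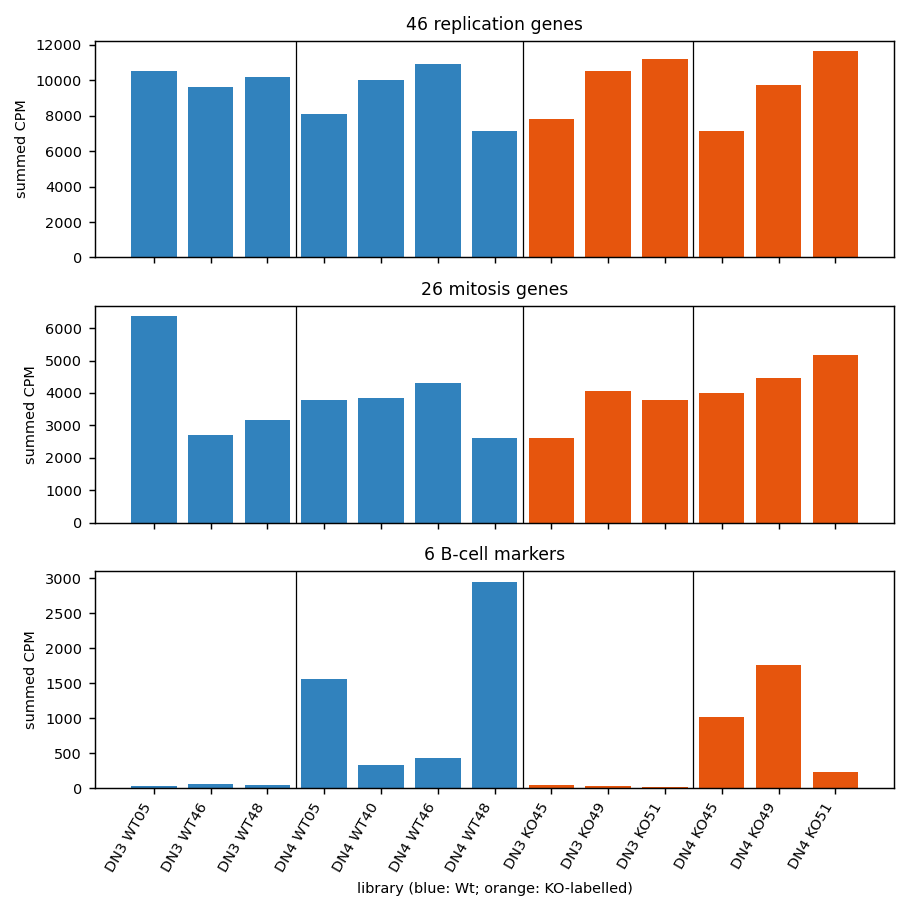
Summed CPM (y axes, from 0) of the 46 replication genes, 26 mitosis genes and 6 B-cell markers in each of the 13 libraries (x axis, 1 bar per library; blue: Wt; orange: KO-labelled). B-cell sums are 20.9 to 54.7 CPM in DN3 and 231 to 2950 CPM in DN4, and WT48 has the lowest replication and the highest B-cell sum among Wt DN4 libraries.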

How the data were processed

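RNA of sorted thymocytes was prepared with a stranded mRNA kit and sequenced in 13 libraries. The deposited table holds whole-number read counts per gene; the authors made it with Cutadapt, STAR and featureCounts on mm10, and aligner versions are not given in the sources used here. It was checked to hold 47937 genes and 0 unused columns. Gene identifiers were matched to GENCODE M21 without their version (47310 found).

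For a comparison, only its own groups entered the fit, over all genes, by edgeR 4.0.16 (quasi-likelihood test; R 4.3.3; filterByExpr, minimum count 10; TMM; Benjamini-Hochberg, threshold 0.05), and the interaction on all 13 libraries. Levels are CPM on TMM-scaled library sizes. Scripts were tested on simulated data. DESeq2 1.42.0, limma 3.58.1 (voom), other scalings and filters, leaving out libraries, and the mouse as a replicate block were tried. Libraries sharing a number had correlated deviations from their group means over 13361 genes (r = 0.124 to 0.460 in 6 mice; over the 46 genes r = 0.142 to 0.552 in 5 mice and -0.227 in WT46). Correlations for libraries with different numbers were not calculated, so these values alone do not show the pairing. The titles give the same number at both stages, which is read as the mouse. A sorting day or preparation shared by both stages cannot be told apart from it. No pair of replicates agreed within counting noise (chi-square per degree of freedom 6.19 or more). Libraries held 5926848 to 14148661 counts, and the lowest member count was 96.

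The genes and lists were chosen with earlier results of these data known. Named with values were Opa1, Mcm2 to Mcm7, Cdc6, Cdt1, Gmnn, E2f1, E2f2, Ccne1, Ccne2, the called genes, those highest and lowest per kilobase, and called genes of the other lists. All others named (such as Orc1, Pola1, Pole, Prim2, Pold1, Pold2, Pcna beyond its rank, Cdc45, Rpa1, Rrm2, Chaf1b, Dut and Gins4) were chosen after their values were seen.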

Additional observations from a re-analysis of the deposited data

Results flagged for a closer look

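In Wt DN4, Gins4, a subunit of the GINS complex of the active helicase, had 50.8, 52.0 and 50.8 CPM in mice WT05, WT40 and WT46 and 43.3 CPM in mouse WT48. The gap of WT48 to the nearest other library was 0.861 of the whole range, above Dixon's critical value for 4 libraries. It was the only one of the 46 genes for which a lone library stood apart in this way in Wt DN4, the one group with enough libraries, and chance alone marks about 1 in 20 groups.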

How the results depend on the processing

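The count of replication genes called between the stages rested on few genes near the threshold. In Wt, where it was 1, it was 0 with DESeq2 size factors, library totals, no filter beyond 1 count, at least 10 counts in every library, a log2 fold change of at least 1, and the mouse as a replicate block (also without mouse WT05 or WT48). It was 2 with all 13 libraries in one fit (26.6% of all genes), 3 without mice WT40 and WT46 (13.7%), 5 at an adjusted p of 0.1 (30.9%), and 0 to 3 when 1 library was left out. The 3 without the DN4 library of WT46 were Uhrf1, Chaf1b and Pold1, and those without both mice were Orc1, Prim2 and Chaf1b. In KO-labelled mice, where it was 1, it was 7 with the mouse as a replicate block, 0 at a log2 fold change of at least 1, and 0 to 2 when 1 library was left out (0 without DN3 KO49, 2 without DN4 KO51). The block changed no other call of the replication genes. E2f2 in Wt changed sign without mice WT40 and WT46, to -0.051. Several medians changed sign between alternatives. The Wt stage median went from -0.18 to -0.45 without mice WT40 and WT46 and to 0.02 by library totals. Leaving out 1 library gave -0.29 to -0.09 in Wt and -0.29 to 0.06 in KO-labelled mice between the stages, and -0.15 to 0.10 in DN3 and -0.06 to 0.28 in DN4 between the genotypes. Over the other alternatives the stage median in KO-labelled mice ran from -0.11 to -0.06. The genotype median ran from -0.05 to 0.21 in DN3 and from 0.08 to 0.34 in DN4, and the interaction median from -0.10 to 0.38. Over all genes, calls between the stages numbered 2903 in Wt, 1782 by library totals, 1723 without mice WT40 and WT46 and 1044 with the block and without WT48, and 2338 in KO-labelled mice, 4499 with the block; between the genotypes in DN4 they numbered 7, 55 with DESeq2 and 11 without the filter. Calculating TMM without the 11 ribosomal RNA-like genes, and the block without WT05 or WT48, were chosen after seeing the data. The cause of these differences was not tested. With 3 or 4 mice per group, the counts per gene are high and the spread between mice sets the precision.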
